A study of Mus musculus with 48 samples.

Results

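The genes Lrrc10b, B230110G15Rik, Serpina3g, Dlk1 and Lpl are described here across hippocampal tissue of mice that lack the cannabinoid receptor CB1 in glutamatergic or in GABAergic neurons. They are 5 of the 24421 genes listed in the count table. They were chosen by their difference in counts between Glu-CB1-KO and Glu-CB1-WT mice after open field exposure, so their values in that comparison are given as a description, without a test. The remaining 6 groups of mice had no part in that comparison, and tests are given for comparisons among those. Earlier results of these data were known when the genes were chosen, so these tests are not fully independent of the choice.

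CA tissue (the cornu ammonis, dissected after removal of the dentate gyrus) from 48 male mice, with an age of 8 weeks on the labels, was analyzed by RNA-sequencing. All mice come from crosses that carry the floxed CB1 allele (CB1f/f). In the Glu-CB1 line, Cre recombinase under the regulatory elements of nex1 deletes CB1 in glutamatergic neurons of Glu-CB1-KO mice, and in the GABA-CB1 line Cre under the elements of dlx5/6 deletes it in GABAergic neurons of GABA-CB1-KO mice. Mice were taken in the basal state from the home cage or after they had explored an open field arena for 5 min. In the study, tissue of the latter was isolated with a set delay, not right after the exploration. In the Glu-CB1 line there were 5 WT and 7 KO mice in each state. In the GABA-CB1 line there were 6 WT and 6 KO mice in the basal state and 7 WT and 5 KO mice after open field. Each library is 1 mouse, and the study chose its libraries with tissue purity, behavior and induced neuronal activity in view.

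CB1 is a presynaptic receptor through which endocannabinoids reduce transmitter release, from excitatory terminals when it sits on glutamatergic neurons and from inhibitory terminals when it sits on GABAergic neurons. The genes described here belong to separate systems. Lpl encodes lipoprotein lipase, which releases fatty acids from the triglycerides of lipoproteins. Dlk1 encodes a transmembrane and secreted protein with EGF-like repeats that resembles the Notch ligands, and it is an imprinted gene transcribed from the paternal allele. Serpina3g encodes an intracellular inhibitor of cysteine cathepsins that is known from activated lymphocytes and is a target of interferon signaling. Lrrc10b encodes a protein with leucine-rich repeats whose role is little known. B230110G15Rik is a long noncoding RNA that starts head to head with Lmo3, a gene for a LIM-domain transcriptional regulator of neurons.

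The libraries held 25892654 to 34091080 reads that fell on genes. Levels are given as CPM, read counts scaled to a common library size with TMM factors, and a gene is called at an adjusted p under 0.05 in the quasi-likelihood test of edgeR, with p-values adjusted over all genes tested by the method of Benjamini and Hochberg. As a check of the labels, Cnr1, the gene for CB1, lay between 204.1 and 249.4 CPM in the 14 Glu-CB1-KO mice and between 330.3 and 411.6 CPM in the 10 Glu-CB1-WT mice. Neurod6, the gene whose elements drive Cre in the Glu-CB1 line, lay between 198.3 and 258.6 CPM in the same KO mice and between 306.2 and 399.9 CPM in the WT mice. In the GABA-CB1 line, Cnr1 lay between 100.3 and 158.4 CPM in the 11 mice labelled KO and between 310.7 and 394.0 CPM in the 13 labelled WT. Group sizes here follow the sample labels, while the text of the study gives those of the open field GABA-CB1 groups the other way round. The first principal component of the 48 libraries, computed without the 5 genes, held 17.59% of the variance of the genes it used and split the libraries of every group. Transcripts of the choroid plexus, a tissue next to the hippocampus, stood apart in 3 libraries: Glu-CB1-KO basal replicate 6 (658 summed CPM), GABA-CB1-WT basal replicate 3 (1549) and GABA-CB1-KO open field replicate 4 (4121), against 49.2 to 298 in the others. Each comparison below that holds such a library was also computed without it. Markers of CA pyramidal neurons were present throughout, with summed levels of 923 to 1306 CPM for dorsal CA1 and 974 to 1368 CPM for CA3 and CA2, and those of dentate granule cells, whose region had been removed, summed to 343 to 705 CPM.

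The positions of the genes set what the counts can tell apart. In the mm10 models of the count table, Lrrc10b is at chr19:10455371-10457447 on the minus strand with a single exon, 2190 bases from Syt7. B230110G15Rik spans chr6:138580624-138599314 on the plus strand, opposite to Lmo3, and shares no exonic base with it. Serpina3g spans chr12:104214544-104241934, Dlk1 chr12:109452823-109463336 and Lpl chr8:68880555-68906932, all on the plus strand. Serpina3g and Dlk1 are thus on the same chromosome, 5210889 bases apart. Of all 50-base stretches in the GENCODE transcripts of Serpina3g, 15.5% also occur in other genes, most often in Serpina3h (8.89%). Its model shares 147 exonic bases with Serpina3f. Reads from these stretches cannot be told from those of its paralogs. Whether such reads were counted or dropped is not given in the sources used here. For Lpl this share was 1.40%, for Lrrc10b 0.537%, and for Dlk1 and B230110G15Rik no stretch was shared.

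The sequence before the start site is shown for the 3 genes with an entry in the RefSeq table of start sites (assembly GRCm38.p6), because Serpina3g and Dlk1 had the higher values in the choosing comparison and Lrrc10b the lower ones. Each is 250 bases long and ends at the base before the start site, 5′ to 3′ on the strand of the gene, from chr12:104235897-104236146, chr12:109452573-109452822 and chr19:10457448-10457697. Capitals mark matches on either strand to the motifs searched, which were GAS (TTCNNNGAA, an element for STAT factors), kappaB, CRE (TGACGTCA), its shorter form TGACG, the E-box CACGTG, the TATA box TATAAA, the GC box GGGCGG and the Egr motif GCGTGGGCG.
Serpina3g: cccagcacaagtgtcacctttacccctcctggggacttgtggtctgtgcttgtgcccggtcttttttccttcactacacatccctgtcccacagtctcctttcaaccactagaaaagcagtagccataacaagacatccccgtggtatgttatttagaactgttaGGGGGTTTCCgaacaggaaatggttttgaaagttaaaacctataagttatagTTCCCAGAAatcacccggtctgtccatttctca
Dlk1: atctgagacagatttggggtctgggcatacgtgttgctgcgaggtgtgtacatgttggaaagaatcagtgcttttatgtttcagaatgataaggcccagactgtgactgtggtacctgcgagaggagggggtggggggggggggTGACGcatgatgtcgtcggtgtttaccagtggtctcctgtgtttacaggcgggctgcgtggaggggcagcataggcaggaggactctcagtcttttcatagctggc
Lrrc10b: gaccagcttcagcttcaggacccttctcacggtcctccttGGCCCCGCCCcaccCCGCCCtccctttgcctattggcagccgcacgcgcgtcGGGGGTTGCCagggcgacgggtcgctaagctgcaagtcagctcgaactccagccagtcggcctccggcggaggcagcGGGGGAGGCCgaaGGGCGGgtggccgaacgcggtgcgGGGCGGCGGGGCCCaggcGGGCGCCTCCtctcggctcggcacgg
In the window of Serpina3g the GAS match begins 33 bases before the start site and the kappaB match 85 bases before it. A GAS match is present in 7.02% of all 32851 windows of this length and a kappaB match in 45.8%. The window of Dlk1 holds the short CRE form, found in 17.8% of windows. The window of Lrrc10b has a GC content of 74.0%, against a median of 52.4% over all windows. It holds GC boxes (32.7% of windows) and matches to the loose kappaB form, some of which overlap. The bases that follow the start site of Serpina3g in this table were not found as an unbroken run in its GENCODE transcripts. Its window may therefore not be the one in use here. A match describes letters, not binding.

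For B230110G15Rik, exon 3 (chr6:138588905-138588992, 88 bases, plus strand, GENCODE M21) is shown because it lies outside the span of Lmo3.
B230110G15Rik: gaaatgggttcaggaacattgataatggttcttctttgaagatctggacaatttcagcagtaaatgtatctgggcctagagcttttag

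The 5 genes differ widely in level. Per kilobase of exon, in the open field Glu-CB1-WT mice, Lpl (25.8 ± 2.00 CPM per kb, SD, n = 5) and Lrrc10b (25.99 ± 0.409) were the most abundant, B230110G15Rik reached 3.39 ± 0.632, and Serpina3g (1.54 ± 0.337) and Dlk1 (0.967 ± 0.425) were the least abundant. In raw reads, a library held between 2087 and 3770 on Lpl, 967 to 2042 on Lrrc10b, 65 to 572 on Dlk1, 22 to 208 on Serpina3g and 27 to 95 on B230110G15Rik. The last 3 therefore carry a larger counting error. In tissue samples such as these, fewer cells that express a gene and less of its RNA per cell cannot be told apart.

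**Figure D1:**
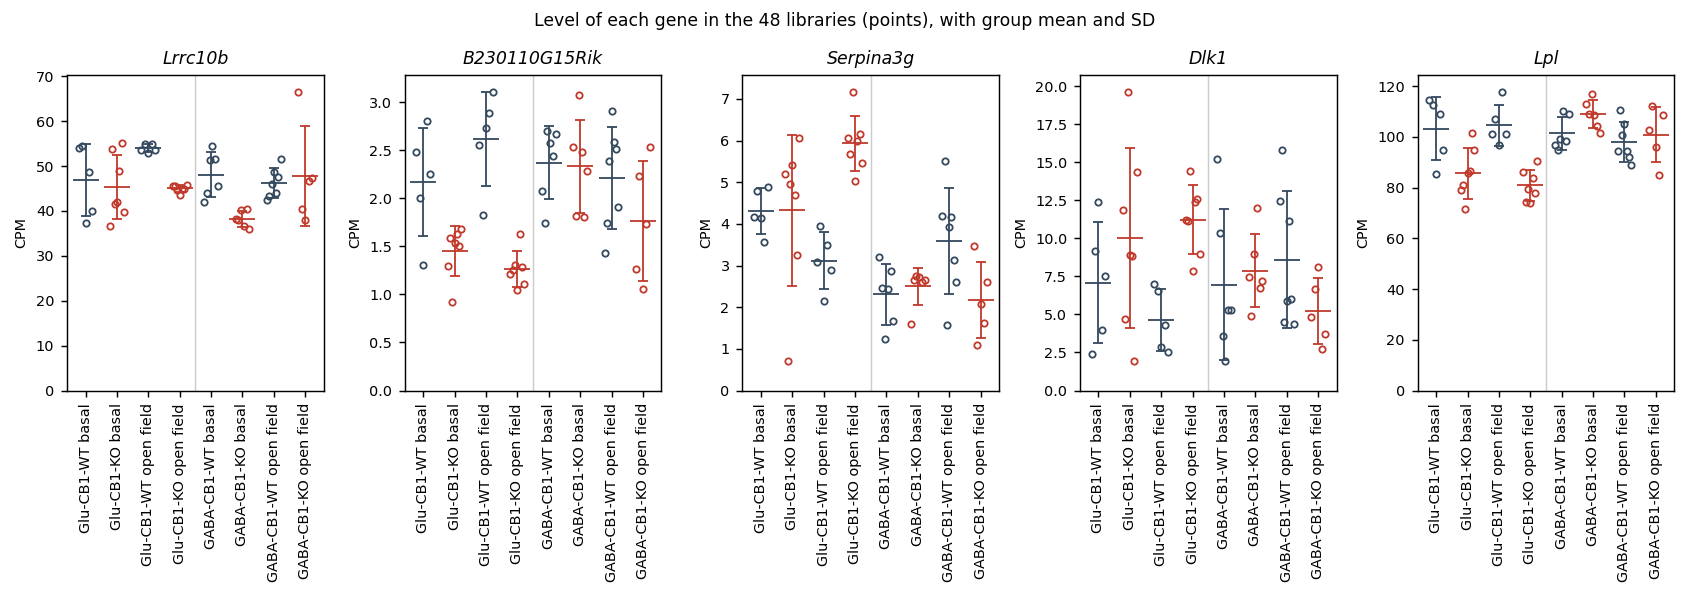
Each panel plots CPM (y axis, from 0) of a gene in the 8 groups; points are the 48 libraries, horizontal bars the group means and error bars the SD, with CB1-WT in dark blue and KO in red. In the Glu-CB1 open field groups the KO and WT points do not overlap for any of the genes, and in the GABA-CB1 basal groups they do not overlap for Lrrc10b, with 36.04 to 40.3 CPM in KO mice.

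In the choosing comparison, Glu-CB1-KO against Glu-CB1-WT after open field, 41 of 15078 genes were called (0.272%). The 5 genes are among them because this comparison chose them, and nothing is read from that count. Dlk1 and Serpina3g were higher in the KO mice, and Lrrc10b, B230110G15Rik and Lpl were lower. For none of the 5 did the KO and WT libraries overlap, which held for 0.458% of all genes in the higher and 0.285% in the lower direction and again goes with the choice.

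Dlk1 was at 7.01, 6.52, 2.87, 4.31 and 2.56 CPM in the 5 Glu-CB1-WT open field mice, and at 7.84 (lowest), 11.2 (median) and 14.5 (highest) CPM in the 7 Glu-CB1-KO mice. The gap between the groups is narrow, with the lowest KO library just above the highest WT library, but the fitted difference was large (log2 fold change 1.26, SE 0.23, a 2.40-fold level). In fold, Dlk1 ranked second among the genes called higher. Serpina3g was at 3.09, 3.96, 2.15, 3.501 and 2.90 CPM in WT mice and at 5.03, 5.99 and 7.16 CPM (lowest, median, highest) in KO mice. Every KO library thus lay above every WT library (log2 fold change 0.92, SE 0.13, a 1.90-fold level).

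B230110G15Rik was at 2.56, 1.82, 2.73, 2.88 and 3.10 CPM in WT mice and at 1.05, 1.26 and 1.62 CPM (lowest, median, highest) in KO mice. This was the largest fold among the genes called lower (log2 fold change −1.05, SE 0.14, a 0.482-fold level). Lpl was at 101, 107, 96.6, 118 and 101 CPM in WT mice and at 73.8, 79.3 and 90.4 CPM in KO mice (log2 fold change −0.37, SE 0.058). The highest KO library remained below the lowest WT library. Lrrc10b was at 53.6, 54.9, 53.0, 54.9 and 53.7 CPM in WT mice and at 43.6, 44.97 and 45.9 CPM in KO mice (log2 fold change −0.26, SE 0.030).

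The difference of Lrrc10b was small, a 0.834-fold level, and stood beside a very narrow spread. The coefficient of variation was 1.57% in Glu-CB1-WT and 1.68% in Glu-CB1-KO mice after open field, below the 2.50% and 2.70% that counting error alone gives at these read numbers. In the basal Glu-CB1-KO group it was 15.9%, and in the open field GABA-CB1-KO group 23.4%. When each of the 12 libraries was left out in turn, the log2 fold change of Dlk1 lay between 1.11 and 1.46. That of Lrrc10b lay between −0.27 and −0.25. As a description, Dlk1 was called in 4 of these 12 fits and Lrrc10b in 12.

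**Figure D2:**
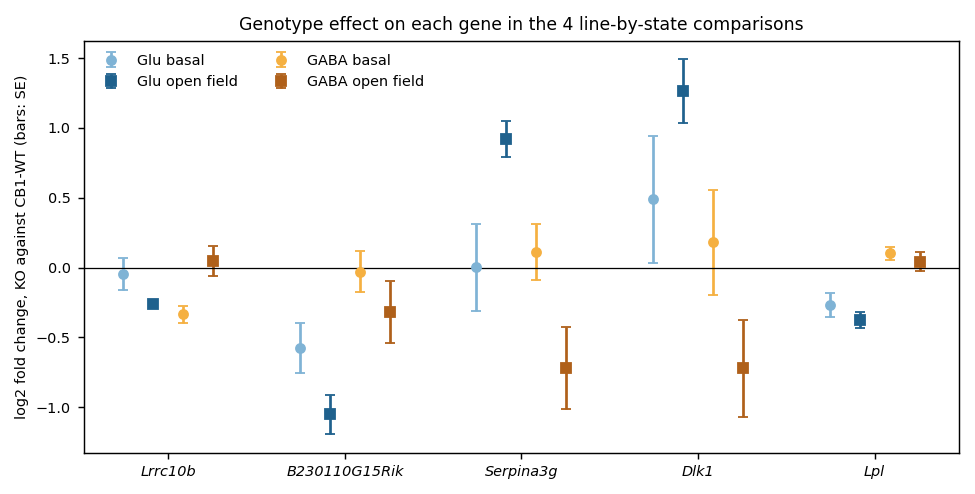
Log2 fold change of KO against CB1-WT (y axis) with its SE (bars) for each gene in the 4 comparisons of a line and a state, circles for basal and squares for open field. The open field Glu-CB1 values are those that chose the genes, and of the remaining values only that of Lrrc10b in the basal GABA-CB1 line (−0.33) passed the test.

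Without the open field, the same mutation was examined in 12 other Glu-CB1 mice. None of the 5 genes was called in basal Glu-CB1-KO against Glu-CB1-WT mice, where 0.0198% of genes were called in all. At an unadjusted p under 0.05 there were 2 of the 5, against 3.57% of all genes, and DESeq2 called none of the 5. B230110G15Rik was at 2.48, 2.00, 1.31, 2.80 and 2.26 CPM in WT mice and at 0.925, 1.54 and 1.67 CPM (lowest, median, highest) in KO mice. All but the lowest WT library lay above all KO libraries (log2 fold change −0.58, SE 0.18, unadjusted p = 0.00614 and adjusted p = 0.999 by edgeR).

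Lpl was at 114, 112, 85.6, 109 and 94.9 CPM in basal WT mice and at 71.5, 85.7 and 102 CPM in KO mice. The groups overlapped (log2 fold change −0.27, SE 0.087, unadjusted p = 0.00747 and adjusted p = 0.999 by edgeR). For both genes the value was thus lower in KO than in WT mice in both states, without passing the test in the basal state. For the 2 genes that were higher after open field, the basal values spread much more than they differed. Dlk1 ran from 2.41 to 12.4 CPM in basal WT and from 1.96 to 19.6 CPM in basal KO mice (log2 fold change 0.49, SE 0.46, adjusted p = 0.999 by edgeR). Serpina3g ran from 3.57 to 4.89 CPM in WT mice and from 3.25 to 6.06 CPM in 6 of the KO mice, with 0.697 CPM in replicate 2 (log2 fold change 0.00, SE 0.31). Lrrc10b had means of 46.9 ± 7.97 CPM (SD, n = 5) in WT and 45.4 ± 7.20 CPM (SD, n = 7) in KO mice, with a log2 fold change of −0.05 and an SE of 0.12.

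Set side by side, the open field groups of the Glu-CB1 line moved apart from opposite sides for Dlk1 and Serpina3g. The mean log2 CPM of Dlk1 was 0.49 below basal in the open field WT mice (difference −0.49) and 0.43 above basal in the open field KO mice. For Serpina3g these differences were −0.48 and 0.66, the latter widened by the lowest basal KO library (0.697 CPM). Its median in KO mice was 4.97 CPM in the basal state and 5.99 CPM after open field. In WT mice its medians were 4.17 and 3.09 CPM. For Lrrc10b the differences in mean log2 CPM were 0.22 and 0.00, for B230110G15Rik 0.29 and −0.18, and for Lpl 0.02 and −0.08. These values share the open field libraries with the choice of the genes and carry no test.

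In the GABA-CB1 line, deletion of CB1 reaches another class of neurons, and these 24 mice did not enter the comparison that chose the genes. Since earlier results of these data were known at the choice, the tests are not fully independent of it. In the basal state, Lrrc10b fell in GABA-CB1-KO mice, and it was the only one of the 5 genes to pass the test (0.245% of all 15082 genes were called, 0.206% in the lower direction). At an unadjusted p under 0.05 there were 2 of the 5, against 8.16% of all genes. Its CPM was 41.9, 48.4 and 54.4 (lowest, median, highest) in the 6 WT mice and 36.04, 38.1 and 40.3 in the 6 KO mice. The groups did not overlap, as for 0.464% of all genes in the lower direction (log2 fold change −0.33, SE 0.061, a 0.794-fold level, adjusted p = 0.0390 by edgeR). DESeq2 made the same call. The call is close to the threshold. It was kept without GABA-CB1-WT replicate 1 or 2 and lost when any of the other 10 libraries was left out (adjusted p over all 12 from 0.0126 to 0.117), among them the WT library high in choroid plexus transcripts (adjusted p = 0.0735). It was also lost with the replicate block (adjusted p = 0.110) and with all 48 libraries in a single fit (adjusted p = 0.224), while the log2 fold change stayed between −0.37 and −0.29.

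Of the other 4 genes in basal GABA-CB1 mice, Lpl came nearest, with 95.0, 98.9 and 110 CPM (lowest, median, highest) in WT and 102, 109 and 117 CPM in KO mice. The groups overlapped, and the value was higher in the KO mice, the opposite side to the Glu-CB1 line (log2 fold change 0.10, SE 0.045, adjusted p = 0.605 by edgeR). B230110G15Rik (−0.03, SE 0.15), Serpina3g (0.11, SE 0.20) and Dlk1 (0.18, SE 0.37) had log2 fold changes below their SE.

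The difference of the basal KO effect between the lines was tested directly. It passed the threshold for none of the 5 genes, against 0.279% of all genes, with 2 of the 5 at an unadjusted p under 0.05 (8.56% of all genes) and none called by DESeq2. The largest departure relative to its error was that of Lpl, whose KO effect in the Glu-CB1 line minus that in the GABA-CB1 line was −0.37 on the log2 scale (SE 0.10, adjusted p = 0.185 by edgeR, range over leaving out each library 0.0512 to 0.314). For B230110G15Rik the difference was −0.55 (SE 0.24, adjusted p = 0.523) and for Lrrc10b 0.29 (SE 0.14, adjusted p = 0.587).

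After open field, none of the 5 genes was called in GABA-CB1-KO mice (0.0199% of all genes were). At an unadjusted p under 0.05 there was 1 of the 5, against 13.2% of all genes, and DESeq2 called none of the 5. Serpina3g and Dlk1 had values on the opposite side to the Glu-CB1 line. Serpina3g was at 1.56, 3.92 and 5.50 CPM (lowest, median, highest) in the 7 WT mice and at 3.48, 1.10, 2.07, 1.63 and 2.602 CPM in the 5 KO mice. Of the 7 WT libraries, 4 lay above every KO library and 3 within the KO range (log2 fold change −0.72, SE 0.29, unadjusted p = 0.0269 and adjusted p = 0.333 by edgeR). Dlk1 was at 4.39, 6.03 and 15.8 CPM in WT mice and at 4.81, 6.66, 8.14, 2.74 and 3.74 CPM in KO mice. Only the upper WT libraries stood clear of the KO range (log2 fold change −0.72, SE 0.35, adjusted p = 0.391 by edgeR). B230110G15Rik had a log2 fold change of −0.32 (SE 0.22), Lrrc10b of 0.05 (SE 0.11) and Lpl of 0.04 (SE 0.068).

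Whether the genotype effect in the GABA-CB1 line differed between states was tested as an interaction. No gene was called by edgeR, with 2237 of 15374 (14.6%) at an unadjusted p under 0.05, and DESeq2 called 62, none of them among the 5 genes. At an unadjusted p under 0.05 there were 2 of the 5. The interaction of Lrrc10b was 0.38 on the log2 scale (SE 0.13, unadjusted p = 0.00788 and adjusted p = 0.227 by edgeR). That of Serpina3g was −0.83 (SE 0.38, adjusted p = 0.318) and that of Dlk1 −0.90 (SE 0.56, adjusted p = 0.448). The response to the open field itself, over both genotypes of the GABA-CB1 line, called none of the 5, against 0.963% of all genes, and none had an unadjusted p under 0.05 (12.1% of all genes) or was called by DESeq2. Its log2 values ran from −0.23 (SE 0.14) for B230110G15Rik to 0.27 (SE 0.20) for Serpina3g.

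The basal WT mice of both lines were compared as well. Serpina3g was higher in the Glu-CB1 line, at 4.17, 4.80, 4.14, 3.57 and 4.89 CPM, than in the GABA-CB1 line, at 1.24, 2.44 and 3.20 CPM (lowest, median, highest). The groups did not overlap, as for 0.178% of all genes in that direction (log2 difference 0.89, SE 0.19). It had the smallest p of all 15150 genes (0.000417), but the adjusted p was 0.969, and edgeR and DESeq2 called no gene (617, or 4.07%, at an unadjusted p under 0.05). The adjusted p by DESeq2 was 0.0785, and over all alternatives it ran from 0.0785 to 0.982. The other 4 genes had log2 differences between −0.13 and 0.03. For Serpina3g, the order of group means thus ran from 5.93 ± 0.668 CPM (SD, n = 7) in open field Glu-CB1-KO mice, through 4.33 ± 1.82 and 4.31 ± 0.543 CPM in basal Glu-CB1-KO and Glu-CB1-WT mice, 3.59 ± 1.27 CPM in open field GABA-CB1-WT and 3.12 ± 0.680 CPM in open field Glu-CB1-WT mice, to 2.50 ± 0.442, 2.31 ± 0.737 and 2.18 ± 0.915 CPM in basal GABA-CB1-KO, basal GABA-CB1-WT and open field GABA-CB1-KO mice. Each group differed from the next in this order by less than the larger SD of the pair.

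The genes whose libraries deviate together with each of the 5 were sought by correlating log2 CPM over the 48 libraries after each group mean was subtracted. Libraries share depth and dissection, so these values are descriptive. Dlk1 went with Dcn, which encodes the proteoglycan decorin (r = 0.93), Efna5, an ephrin ligand (r = 0.89), and Cadm1, a synaptic adhesion molecule (r = 0.85). Serpina3g went with Nr2f2, a nuclear receptor (r = 0.76), Clec18a (r = 0.75) and Nnat (r = 0.74). Dcn, Efna5, Nr2f2 and Nnat are all on a list of 14 genes enriched in the ventral hippocampus. Among the 50 genes most like Dlk1 were 4 of that list and among those most like Serpina3g 3, against 0 for Lrrc10b, B230110G15Rik and Lpl. Of the 13 genes on a list for CA3 and CA2 pyramidal neurons, 3 were among the 50 most like Lrrc10b and 1 among those most like Lpl, against 0 for the other 3 genes.

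Lrrc10b went with Klk8, which encodes the extracellular protease neuropsin (r = 0.85), Neurod2, a transcription factor of excitatory neurons (r = 0.80), and Serpina3n (r = 0.76). B230110G15Rik went with its overlapping neighbor Lmo3 (r = 0.74), then Sipa1l1 (r = 0.70) and Kcna4 (r = 0.68). Lpl went with Enox2 (r = 0.80), Syna (r = 0.80) and Rtn4 (r = 0.79). Among the 5, Dlk1 and Serpina3g deviated together (r = 0.45), as did B230110G15Rik and Lpl (r = 0.45) and, less so, Lpl and Lrrc10b (r = 0.35). Dlk1 deviated in the opposite direction to Lrrc10b (r = −0.61) and B230110G15Rik (r = −0.41), and the other 5 pairs lay between −0.26 and 0.23.

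**Figure D3:**
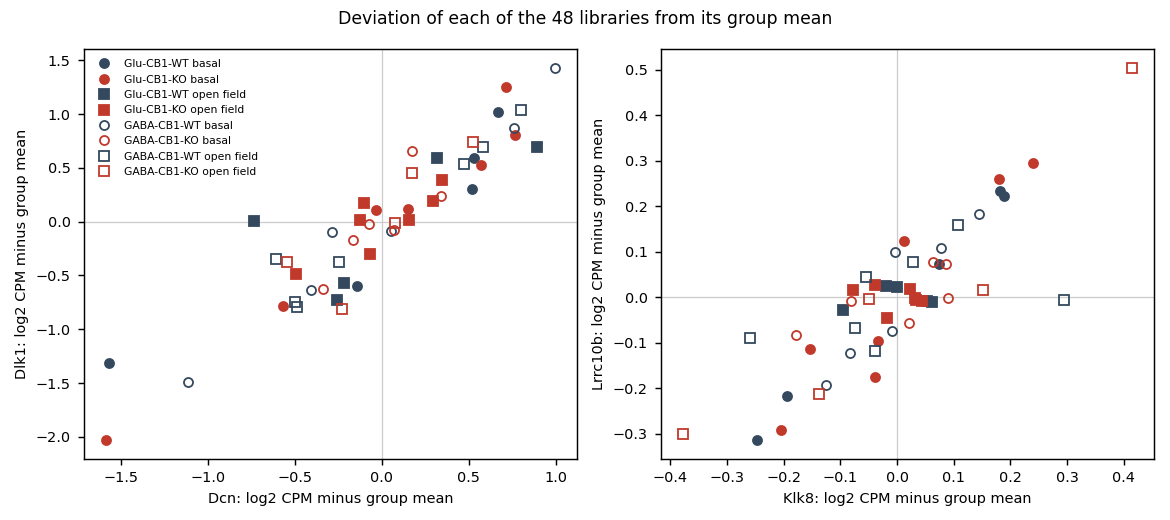
Each point is a library, plotted by its deviation from its group mean in log2 CPM, Dlk1 against Dcn on the left and Lrrc10b against Klk8 on the right; red is KO, dark blue CB1-WT, filled the Glu-CB1 line, open the GABA-CB1 line, circles basal and squares open field. The points run along a diagonal in both panels (r = 0.93 and 0.85), and the open field libraries of the Glu-CB1 line lie close to 0 for Lrrc10b.

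Klk8 was followed through the same comparisons as Lrrc10b. It was called lower in basal GABA-CB1-KO mice (log2 fold change −0.49, SE 0.060, adjusted p = 0.00269 by edgeR) and in open field Glu-CB1-KO mice (−0.31, SE 0.045, adjusted p = 0.00643), and not in basal Glu-CB1-KO mice (0.11, SE 0.095, adjusted p = 0.999) or open field GABA-CB1-KO mice (−0.06, SE 0.12, adjusted p = 0.842). Its basal KO effect differed between the lines (0.59, SE 0.12, adjusted p = 0.0185). The other 2 genes most like Lrrc10b were not called in open field Glu-CB1-KO or basal GABA-CB1-KO mice. Neurod2 was at 0.03 (SE 0.045) and −0.05 (SE 0.041) there, and Serpina3n at 0.06 (SE 0.054) and −0.04 (SE 0.073). Clec18a, which went with Serpina3g, was called lower in basal GABA-CB1-KO mice (−0.69, SE 0.13, adjusted p = 0.0393), where Serpina3g was at 0.11. Kcna4 was called lower after open field in the GABA-CB1 line (−0.21, SE 0.051, adjusted p = 0.0481).

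Since Dlk1 and Serpina3g varied with genes of the ventral hippocampus, the whole list was set beside them. The gene lists were chosen with earlier results of these data known, so their counts here are a description. In open field Glu-CB1-KO mice, 13 of its 14 genes had higher values than in WT mice, with a median log2 fold change of 0.40 against −0.00 over all genes, and 1 was called, the transcription factor gene Etv1 (0.45, SE 0.080, adjusted p = 0.0291 by edgeR). Dcn was at 0.80 (SE 0.22, adjusted p = 0.248), Trhr at 0.76 (SE 0.18), Gpr101 at 0.61 (SE 0.14) and Efna5 at 0.53 (SE 0.11), none of them called by edgeR. At an unadjusted p under 0.05 there were 9 of the 14, against 6.97% of all genes, and DESeq2 called 5, Efna5, Etv1, Gpr101, Grp and Trhr. The summed level of the list ran from 629 to 832 CPM in the KO and from 549 to 685 CPM in the WT mice, and no gene of it was at 0 in any group. Of the list of 13 CA3 and CA2 genes, 11 had lower values, with a median of −0.17, and 2 were called lower by edgeR, Prkcd (−0.58, SE 0.074, adjusted p = 0.00309) and Iyd (−0.56, SE 0.11, adjusted p = 0.0463). In basal GABA-CB1-KO mice 1 gene of that list was called lower, Bok (−0.52, SE 0.066, adjusted p = 0.00328).

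Marker lists of other regions and cell types also moved in the choosing comparison. At an unadjusted p under 0.05 there were 6 of 13 CA3 and CA2 genes, 5 of 10 dorsal CA1 genes and 5 of 10 thalamus genes. For somatostatin interneurons it was 6 of 9 and for subiculum and cortex 6 of 12, against 6.97% of all genes. DESeq2 called 3, 0, 2, 3 and 1 genes of these lists, in that order. The dorsal CA1 list had a median sum of 1190 CPM in KO and 1077 CPM in WT mice. That is the same side as the ventral list, and the libraries overlapped (1106 to 1286 and 923 to 1248 CPM). Of 10 tested thalamus genes 7 had lower values and 2 were called, Plekhg1 (−0.42, SE 0.079, adjusted p = 0.0424 by edgeR) and Prkcd, which is on that list as well as on the one for CA3 and CA2. Of 9 genes of somatostatin interneurons 7 had higher values and 2 were called, Crhbp (0.61, SE 0.098, adjusted p = 0.0174) and Npy (0.55, SE 0.090, adjusted p = 0.0185). Of 12 genes of subiculum and cortex 8 had higher values and Fezf2 was called (0.33, SE 0.060, adjusted p = 0.0361). All 12 microglia genes and 10 of 12 oligodendrocyte genes had lower values, with medians of −0.06 and −0.11 and none called by edgeR or DESeq2 (0 and 4 at an unadjusted p under 0.05). In basal GABA-CB1-KO mice, where Lrrc10b was called, Crhbp was called lower (−0.44, SE 0.066, adjusted p = 0.00940), the thalamus gene Lhx9 was called higher (0.23, SE 0.043, adjusted p = 0.0390), and all 12 microglia and all 9 tested choroid plexus genes had lower values (medians −0.08 and −0.86, none called by edgeR or DESeq2, 2 and 5 at an unadjusted p under 0.05). The part of these lists in the values of the 5 genes was not tested.

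In the other 3 KO comparisons the median of the ventral list had the sign of Dlk1. The median was 0.01 in basal Glu-CB1-KO mice, with 7 genes higher and 7 lower. It was 0.19 in basal GABA-CB1-KO mice, with 13 of 14 higher, and −0.18 in open field GABA-CB1-KO mice, with 10 of 14 lower. None of its genes was called in these 3 comparisons by edgeR or DESeq2, with 0, 3 and 1 at an unadjusted p under 0.05. In the basal difference between lines the signs were opposite, with a median of −0.16 for the list and 0.31 (SE 0.64) for Dlk1. In the GABA-CB1 interaction all 14 values were negative, with a median of −0.36, beside −0.90 for Dlk1 and −0.83 for Serpina3g. The position of the dissected piece along the hippocampus was not recorded in the labels, and the part of the ventral genes in the values of Dlk1 and Serpina3g was not tested.

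**Figure D4:**
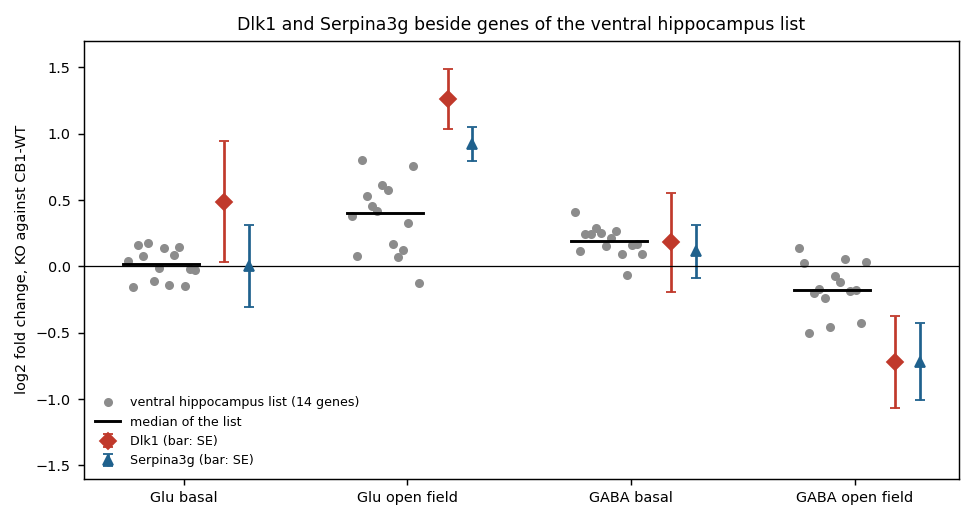
Log2 fold change of KO against CB1-WT (y axis) in the 4 comparisons; grey points are the 14 genes of the ventral hippocampus list, the black line their median, the red diamond Dlk1 and the blue triangle Serpina3g, with SE bars. The median of the list is 0.40 in open field Glu-CB1-KO mice and −0.18 in open field GABA-CB1-KO mice, on the side of Dlk1 and Serpina3g in both. The list was chosen with earlier results of these data known.

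Other genes of the systems to which the 5 belong were examined in all 8 comparisons. Of all genes, 3.57% to 14.6% had an unadjusted p under 0.05 in these comparisons. For lipoprotein lipase, 24 of 31 genes for its cofactors, inhibitors, chaperones and receptors could be tested, and edgeR called none in any comparison, with 1 to 3 at an unadjusted p under 0.05 in each. In open field Glu-CB1-KO mice 14 were higher and 10 lower, with a median log2 fold change of 0.01. Lipg, a related endothelial lipase named here after its values were seen, was at −0.51 (SE 0.11, adjusted p = 0.0805) in basal and at −0.67 (SE 0.15, adjusted p = 0.154) in open field GABA-CB1-KO mice by edgeR, and DESeq2 called it in the former.

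Of 36 tested genes of the Notch pathway, to which Dlk1 is related by sequence, none was called by edgeR in a KO comparison, with 2 to 4 at an unadjusted p under 0.05, and their median in open field Glu-CB1-KO mice was 0.01. DESeq2 called Dner in open field GABA-CB1-KO mice and Dll4 in the open field response of the GABA-CB1 line. In the difference of the basal KO effect between lines, 1 was called, Dner, a neuronal Notch ligand (0.22, SE 0.043, adjusted p = 0.0186 by edgeR). Of the imprinted domain around Dlk1, 10 genes could be tested in open field Glu-CB1-KO mice, with 2 at an unadjusted p under 0.05 and none called by edgeR or DESeq2. Meg3, the maternally expressed noncoding RNA 77660 bases away, was at −0.02 (SE 0.096), Rian at 0.07 (SE 0.031) and Dio3, the gene at the other end of the domain, at 0.87 (SE 0.31, adjusted p = 0.461). Meg3 ran at a mean of 5539 ± 292 CPM (SD, n = 5) in WT and 5468 ± 855 CPM (SD, n = 7) in KO mice. In basal GABA-CB1-KO mice 4 of 11 domain genes had an unadjusted p under 0.05 by edgeR, against 8.16% of all genes. They were Dio3os (0.80, SE 0.37), Dio3 (0.73, SE 0.33), Slc25a29 (0.15, SE 0.066) and Ppp2r5c (−0.06, SE 0.026). In the basal difference between lines there were 3 of 11 and in the other comparisons 0 to 2. None was called by edgeR or DESeq2 in any of them. Of 28 imprinted genes elsewhere, 23 had higher values in open field Glu-CB1-KO mice, with a median of 0.09. There, 7 were at an unadjusted p under 0.05 and none was called by edgeR or DESeq2. In basal GABA-CB1-KO mice DESeq2 called Plagl1 of these genes.

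For Serpina3g, 3 of its 10 paralogs were expressed enough to be tested. Serpina3h, with which it shares most sequence, was at 0.56 (SE 0.25, adjusted p = 0.656) in open field Glu-CB1-KO mice, from means of 0.527 ± 0.187 CPM (SD, n = 5) in WT and 0.787 ± 0.195 CPM (SD, n = 7) in KO mice. Serpina3c was at 0.21 (SE 0.24), and Serpina3n, the abundant astrocytic member, at 0.06 (SE 0.054). Of 11 tested cathepsins, a group that includes the cysteine cathepsins Serpina3g inhibits, none was called in any comparison by edgeR or DESeq2. There were 0 to 4 at an unadjusted p under 0.05, and the median in open field Glu-CB1-KO mice was −0.02. Interferon response genes lay on the side opposite to Serpina3g in the comparisons where its values differed most. In open field Glu-CB1-KO mice 31 of 35 had lower values (median −0.20), in the GABA-CB1 interaction 31 of 35 had higher values (median 0.20), and in the comparison of the lines' WT mice 30 of 35 had lower values (median −0.10). None was called by edgeR or DESeq2 in these 3, with 10, 10 and 3 at an unadjusted p under 0.05. Over all genes the shares were 6.97%, 14.6% and 4.07%. The only call over the 8 comparisons was Irf9 in the open field response of the GABA-CB1 line (0.31, SE 0.075, adjusted p = 0.0418 by edgeR).

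Nearest neighbors on the chromosome were not called with any of the 5. Beside Lrrc10b, Syt7 was at −0.14 (SE 0.057, adjusted p = 0.616) in open field Glu-CB1-KO and at −0.13 (SE 0.051, adjusted p = 0.547) in basal GABA-CB1-KO mice, the same side as Lrrc10b, and Ppp1r32 was at 0.27 (SE 0.24) and 0.32 (SE 0.18). Lmo3, with a mean of 120 ± 9.32 CPM (SD, n = 7) in open field Glu-CB1-KO and 117 ± 4.68 CPM (SD, n = 5) in WT mice, was at 0.03 (SE 0.051, adjusted p = 0.999), beside −1.05 for its antisense neighbor B230110G15Rik. The next genes beyond these, A830011K09Rik and Igbp1b, were at 0.05 (SE 0.096) and 0.15 (SE 0.22). Beside Lpl, Ints10 was at 0.03 (SE 0.037) and Atp6v1b2 at 0.06 (SE 0.036), and Begain, next to Dlk1 on the side away from Meg3, at −0.04 (SE 0.047). Of 23 tested genes named for leucine-rich repeats as Lrrc10b is, none was called by edgeR in any comparison, with 0 to 3 at an unadjusted p under 0.05 and a median of 0.01 in open field Glu-CB1-KO mice. DESeq2 called Lrrc8c in the open field response of the GABA-CB1 line.

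The genotype differences in the choosing comparison were also read within the sets of libraries on either side of the first principal component, with 3 KO and 3 WT libraries above 0 and 4 and 2 below. They were, as a description, alike for Serpina3g (0.95 and 0.93 on the log2 scale), Lrrc10b (−0.26 and −0.25) and Lpl (−0.37 and −0.35). For Dlk1 they were 1.46 and 1.27, and for B230110G15Rik −0.80 and −1.22.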

How the data were processed

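RNA of the CA region was amplified and made into single-end libraries with NuGEN's Ovation kits. Per the submitters' processing notes and the paper, reads were trimmed, aligned to mm10 with STAR 2.6.0a and counted on exons with featureCounts 1.6.2 in its reverse-stranded mode. The deposited values are raw read counts, not normalized, for 24421 genes in 48 libraries, of which 3596 genes had no count. Amplification, alignment and the choice of strand are thus part of the values. Whether the kits keep strand is not given in the sources used here, so reads of B230110G15Rik and Lmo3 may not be separated fully.

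Each comparison was fitted on its own libraries with edgeR 4.0.16 (TMM, filterByExpr, quasi-likelihood) in R 4.3.3, and p-values were adjusted over all genes tested. CPM and principal components used log2 CPM with a prior count of 2. Every library is a mouse, so n counts mice. Of 123 pairs of libraries within groups, none agreed within sampling noise (lowest chi-square per degree of freedom 2.85). The members and the gene lists were chosen with earlier results of these data known. Named are the 5 genes, their nearest tested or overlapping neighbors, the 3 genes most correlated with each, Cnr1 and Neurod6, and called genes of the lists on lipoprotein lipase, Notch, imprinting, Serpina3 paralogs, cathepsins, interferon and leucine-rich repeats, with markers of hippocampal regions, neighboring tissues and cell types. Alternatives were DESeq2 1.42.0, its size factors within edgeR, a fit of every gene with at least 1 count, a stricter minimum of 10 counts per library, a joint fit of the 48 libraries, a block for the replicate number, and fits that omit a library. Added after seeing the data were the first principal component as a covariate and leaving out the 3 libraries high in choroid plexus. The tests were tried on simulated counts. Positions come from the count table, and start-site windows from RefSeq, matched by symbol for 3 of the 5 genes.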

Additional observations from a re-analysis of the deposited data

Results flagged for a closer look

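In the 6 basal GABA-CB1-KO mice, Serpina3g was at 1.61 CPM in replicate 1, far from the others, which lay between 2.605 and 2.74 CPM, by Dixon's test at its 95% level. Across 40 gene and group combinations tested in this way, chance alone gives about 1 in 20.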

How the results depend on the processing

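Log2 differences of the 5 genes kept their direction in most alternatives, and the reversals were of values near 0 or within their error. Members called in basal GABA-CB1-KO mice fell from 1 to 0 with all 48 libraries in a single fit, with the replicate block and without the libraries high in choroid plexus, and in open field Glu-CB1-KO mice from 5 to 2 with all 48 libraries and to 0 with the replicate block. The latter comparison chose the genes, so its counts describe that choice and test nothing. Those lost there with all 48 libraries were Lrrc10b, Serpina3g and Dlk1. The labels do not say whether same-numbered libraries belong together. The correlations of their deviations ran from −0.397 to 0.355 over 21 pairs. Deviations from the means of small groups cannot show whether such mice shared a litter, so no conclusion on pairing is drawn. Leaving out each library gave 0 to 1 members called in basal GABA-CB1-KO mice and 4 to 5 in open field Glu-CB1-KO mice. In the latter Dlk1 was the gene lost. With the replicate block, the log2 value turned to −0.142 for Serpina3g in basal Glu-CB1-KO and to −0.00502 for Lpl in open field GABA-CB1-KO mice, and with the first principal component as covariate to −0.0442 for Serpina3g in basal Glu-CB1-KO mice. Without the libraries high in choroid plexus it turned to 0.00982 for B230110G15Rik and −0.0153 for Serpina3g in basal GABA-CB1-KO mice, to 0.00122 for Lpl in the GABA-CB1 interaction, to 0.0790 for Serpina3g in the basal difference between lines and to −0.0999 for Dlk1 between the lines' WT mice. When each library was left out, values that crossed 0 ran in basal GABA-CB1-KO mice from −0.117 to 0.0337 for B230110G15Rik, from −0.0168 to 0.572 for Dlk1 and from −0.0153 to 0.226 for Serpina3g. They ran in basal Glu-CB1-KO mice from −0.0948 to 0.194 for Serpina3g and from −0.120 to 0.0126 for Lrrc10b, and for Lrrc10b in open field GABA-CB1-KO mice from −0.101 to 0.119. For Dlk1 they ran from −0.220 to 0.0797 in the GABA-CB1 open field response and from −0.0843 to 0.614 in the basal difference between lines, where Serpina3g ran from −0.221 to 0.0816. Between the lines' WT mice they ran from −0.247 to 0.0103 for B230110G15Rik, −0.272 to 0.427 for Dlk1, −0.0145 to 0.0833 for Lpl and −0.0991 to 0.0323 for Lrrc10b. The count over all genes moved by more than 1.5 times with DESeq2 in basal Glu-CB1-KO (3 to 7), basal GABA-CB1-KO (37 to 102), open field GABA-CB1-KO (3 to 141) and open field Glu-CB1-KO mice (41 to 124), in the GABA-CB1 response (148 to 269) and interaction (0 to 62) and in the difference between lines (43 to 75). It also moved with the block (37 to 8, 3 to 1, 148 to 36 and 41 to 3 in basal and open field GABA-CB1-KO mice, the GABA-CB1 response and open field Glu-CB1-KO mice), with all 48 libraries (3 to 7 in basal Glu-CB1-KO and 3 to 106 in open field GABA-CB1-KO mice), with the covariate (148 to 226 and 41 to 81 in the response and open field Glu-CB1-KO mice) and without the libraries high in choroid plexus (148 to 31 in the response). Leaving out each library moved it to 3 to 5, 17 to 34, 2 to 11 and 14 to 48 in the KO comparisons (basal Glu-CB1, basal GABA-CB1, open field GABA-CB1, open field Glu-CB1), and to 71 to 267 in the response. The cause was not tested. Counting error limits B230110G15Rik and Serpina3g most.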
